A study of Mus musculus with 8 samples.

Results

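Zfp genes are mouse genes of the zinc finger family whose symbols consist of Zfp and a number. The genes described here were the 123 protein-coding Zfp genes with a mean of at least 5 FPKM over all 8 libraries, of 345 protein-coding Zfp genes considered and of 37310 genes in the table. FPKM is a fragment count scaled to exon length and to the library's own total. Zfp36, Zfp42 and Zfp352 were left out of the set by its definition. RNA was measured in mouse 2-cell embryos cultured with 6 µM triclocarban, an antibacterial compound of soaps and other personal care products (4 libraries), and in 2-cell embryos cultured with the solvent DMSO as control (4 libraries). All embryos grew from fertilized eggs in G1 medium. The labels name no strain, parental age, genetic change or hour of collection, and state neither how many embryos went into each library nor whether the replicates are separate cultures. The spread behind each p-value may therefore be technical. The genes were thus chosen by measured values, their mean FPKM over both groups, so the levels are given as a description. Zfp825, Zfp583 and Zfp260 were just inside the cutoff, with mean levels of 5.03, 5.11 and 5.27 FPKM, and Zfp113, Zfp53 and Zfp511 were just outside, with 4.95, 4.83 and 4.82 FPKM.

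Most of these proteins bind DNA through arrays of C2H2 zinc fingers, in which a pair of cysteines and a pair of histidines hold a zinc ion and each finger contacts a few bases. Many carry a KRAB domain at their start, which recruits TRIM28 and, through it, the H3K9 methyltransferase SETDB1, heterochromatin protein and DNA methyltransferases to the bound site. KRAB zinc finger proteins are known in early embryos for silencing transposable elements and for keeping DNA methylation at imprinted genes through the wave of demethylation after fertilization. Zfp proteins without KRAB include promoter activators, partners of corepressor complexes, RNA-binding proteins and factors of the ribosome and of ubiquitin or SUMO transfer.

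All 13 listed oocyte and 2-cell markers were detected, with summed levels of 7978 to 12782 FPKM with triclocarban and 3408 to 7260 FPKM in control. A few abundant genes, with Btg4, Oosp1, Obox5 and Bmp15 at the top, carry this sum. The list holds oocyte and 2-cell markers together, so the sum cannot tell 2-cell embryos from oocytes and is no check of the labelled stage. Of the 13, 7 (53.8%) were higher and 4 (30.8%) were lower, beside 11.3% and 30.8% of all genes tested. The higher were Ooep (log2 change 2.88), Btg4 (1.52), Usp17la (1.29), Zscan4c (1.27), Bmp15 (1.26), Obox5 (1.23) and Oosp1 (0.81). The groups of Zscan4c and Obox5 overlapped. Lower with no overlap between the groups were Eif1a (-2.97), Tdpoz4 (-1.51), Zfp352 (-1.14) and Zp3 (-1.14). Of 12 listed cumulus and granulosa cell markers, 7 were under 1 FPKM in every library, and the list summed to 10.1 to 19.5 FPKM with triclocarban and 24.3 to 32.8 FPKM in control. Most of the control sum was Amhr2, which averaged 1.23 FPKM with triclocarban and 21.4 FPKM in control. Amhr2 (log2 change -3.40) and Tnfaip6 (-1.63) were lower, while Cyp19a1 (1.55) and Fshr (1.16) were higher. The 7 listed sperm markers summed to 7.23 to 10.4 FPKM with triclocarban and 1.12 to 5.90 FPKM in control, mostly Prm2, with Smcp at 0 in all libraries. The 8 listed blastocyst lineage markers summed to 4.99 to 8.18 FPKM with triclocarban and 3.96 to 7.35 FPKM in control. Mitochondrial genes held 11.1 to 17.6% of all FPKM with triclocarban and 16.6 to 24.3% in control, and 11788 to 11957 genes with triclocarban and 12828 to 13541 genes in control reached 1 FPKM. The part of these marker and composition differences in the results was not tested. In a bulk library, fewer cells and less RNA per cell cannot be told apart, and FPKM gives no absolute amount.

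Of the 123 genes, 122 passed the filter for testing, 13 were higher with triclocarban, 39 were lower and 70 were not called (limma, Benjamini-Hochberg adjusted p under 0.05 over all 12941 genes tested). The share called was 42.6%, against 42.1% of all genes tested. Among the Zfp genes 10.7% were higher, where 11.3% of all genes were, and 32.0% were lower, where 30.8% of all genes were. These shares are close to those of the whole table and are no result about the Zfp genes as a family. The median log2 change in FPKM + 1 was -0.29 for the Zfp genes and -0.19 for all genes tested. In 12 of the 122 tested genes every triclocarban library was above every control library, against 10.2% of all genes tested. In 38 of the 122 every triclocarban library was below, against 30% of all genes tested. The untested gene, Zfp281, also had every triclocarban library below every control. The split between higher and lower depended on scaling: of the called Zfp genes, 25% were higher with FPKM as deposited, 41.1% after median-of-ratios scaling, 39.3% after upper-quartile scaling and 45.8% after quantile normalization. These scalings moved the median log2 change of all genes to 0.06, 0.09 and 0.14.

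Levels of the 123 genes ran from 5.03 to 210.9 FPKM with a median of 16.3 FPKM. A total of 15 genes were at 50 FPKM or above, 5 of them at 100 FPKM or above, and 44 were under 10 FPKM. Together they held 0.574, 0.498, 0.561 and 0.528% of all FPKM with triclocarban, against 0.640, 0.587, 0.578 and 0.574% in control. The median Zfp gene was at 11.4, 9.57, 11.2 and 9.86 FPKM with triclocarban and at 15.6, 16.3, 16.8 and 16.6 FPKM in control, with no overlap between the groups. The median log2 change was -0.29 for the Zfp genes and -0.19 for all genes tested. After median-of-ratios, upper-quartile and quantile scaling in turn, that of the Zfp genes was -0.0037, 0.028 and 0.056. The lower medians with triclocarban are thus no result about the Zfp genes as a family. They also include genes that entered the set through their control level alone. A mean over both groups can admit a gene through 1 group alone. On average, 93 genes were at 5 FPKM or above in both groups. Of these, 9 (9.68%) were higher and 18 (19.4%) were lower with triclocarban, with a median log2 change of -0.20. Of all genes tested, 11.3% were higher and 30.8% were lower, but these genes needed only 1 FPKM in 4 libraries. The 93 genes leave out those under 5 FPKM in 1 group, which removes many called genes, so the shares are not alike and cannot be compared. Another 25 genes were under 5 FPKM with triclocarban only, 21 of them lower, and 5 were under 5 FPKM in control only, 4 of them higher. The genes in these last 2 groups could enter the set only by differing, so their counts are no support for a direction.

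**Figure D1:**
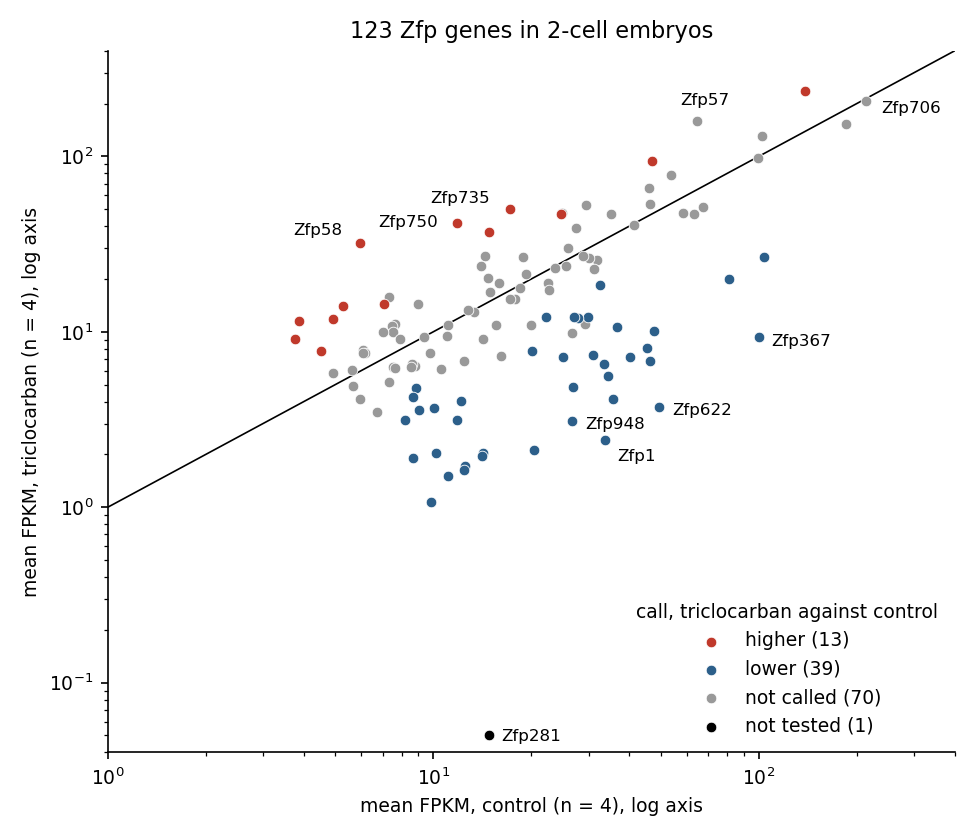
Mean FPKM of each of the 123 Zfp genes with triclocarban (vertical axis) against control (horizontal axis), both on log axes, 4 libraries a group, coloured by call; the line marks equal levels. The 39 lower genes lie below the line, the 13 higher genes above it, and Zfp281, at 0.0503 FPKM with triclocarban and 14.8 FPKM in control, was not tested.

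The largest falls were those of Zfp622, Zfp367 and Zfp1. Zfp622 encodes a factor of late 60S ribosomal subunit maturation. It measured 2.68, 3.16, 6.09 and 2.97 FPKM with triclocarban, against 35.6, 37.1, 62.2 and 63.0 FPKM in control (log2 change -3.42 ± 0.31, adjusted p = 4.75e-05, limma with Benjamini-Hochberg adjustment, as for every adjusted p below). All triclocarban libraries of Zfp622 were far below control, and triclocarban library 3 was the highest of its group. Zfp367 measured 7.74, 6.36, 15.3 and 7.73 FPKM with triclocarban, against 68.3, 64.0, 126 and 141 FPKM in control (log2 change -3.28 ± 0.35, adjusted p = 7.61e-05). Zfp1, a KRAB zinc finger gene with 8 fingers, measured 2.69, 1.97, 3.42 and 1.60 FPKM with triclocarban, against 18.0, 20.7, 47.5 and 48.6 FPKM in control (log2 change -3.24 ± 0.37, adjusted p = 9.36e-05). In Zfp622, Zfp367 and Zfp1 controls 3 and 4 were above controls 1 and 2, and the lowest control was far above the highest triclocarban library.

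Zfp948 averaged 3.10 ± 0.980 FPKM with triclocarban and 26.7 ± 3.03 FPKM in control (SD, n = 4 each; log2 change -2.79 ± 0.27, adjusted p = 5.21e-05). Zfp599 averaged 4.12 ± 0.915 FPKM with triclocarban and 35.6 ± 13.7 FPKM in control (SD, n = 4 each; log2 change -2.78 ± 0.31, adjusted p = 8.7e-05). Both encode KRAB zinc finger proteins, with 15 and 10 fingers. Zfp791 averaged 6.79 ± 2.96 FPKM with triclocarban and 46.3 ± 14.4 FPKM in control (SD, n = 4 each; log2 change -2.65 ± 0.36, adjusted p = 0.000212). Zfp566 averaged 8.09 ± 2.89 FPKM with triclocarban and 45.3 ± 9.11 FPKM in control (SD, n = 4 each; log2 change -2.40 ± 0.31, adjusted p = 0.000174). Like Zfp948 and Zfp599, they belong to the KRAB class. Zfp775, without a KRAB match, averaged 1.97 ± 0.798 FPKM with triclocarban and 14.1 ± 4.19 FPKM in control (SD, n = 4 each; log2 change -2.33 ± 0.30, adjusted p = 0.000159). All 8 falls kept their call and direction in every alternative setting tried, 20 in number. Zfp622, Zfp1, Zfp948, Zfp599 and Zfp775 averaged under 5 FPKM with triclocarban, so they entered the set through their control levels. Their calls are no support for a direction of the set. The exons of Zfp367, Zfp566 and Zfp775 overlap exons of other annotated genes, and without a stated strand setting reads of such genes cannot be told apart.

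The largest rise was that of Zfp58, a KRAB zinc finger gene with 14 fingers. It measured 36.2, 21.8, 35.0 and 34.7 FPKM with triclocarban, against 2.52, 10.6, 6.37 and 4.33 FPKM in control (log2 change 2.35 ± 0.36, adjusted p = 0.000444). Triclocarban library 2 was the lowest of its group but still above all controls, and 49.6% of the transcript's stretches of 75 bases also occur in other genes, so its level is uncertain. Zfp750, known as a regulator of epidermal differentiation, measured 37.3, 56.6, 34 and 39.8 FPKM with triclocarban, against 19.5, 19.2, 4.46 and 4.27 FPKM in control (log2 change 2.01 ± 0.47, adjusted p = 0.00514). Its control libraries fell into a higher pair, 1 and 2, and a lower pair, 3 and 4. Zfp735, a KRAB zinc finger gene, measured 59.2, 55.2, 43.2 and 43.3 FPKM with triclocarban, against 28.7, 20.5, 11.4 and 8.03 FPKM in control (log2 change 1.63 ± 0.36, adjusted p = 0.0038). Zfp60, with 19 fingers, measured 12.5, 10.4, 11.7 and 11.4 FPKM with triclocarban, against 4.22, 5.99, 2.72 and 2.52 FPKM in control (log2 change 1.41 ± 0.28, adjusted p = 0.0019). The 4 triclocarban values of Zfp60 were within 10.4 to 12.5 FPKM, while the controls spread over 2.52 to 5.99 FPKM. Zfp60 averaged 3.86 FPKM in control and entered the set through its triclocarban level.

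Zfp931 averaged 14.1 ± 2.85 FPKM with triclocarban and 5.29 ± 3.17 FPKM in control (SD, n = 4 each; log2 change 1.37 ± 0.34, adjusted p = 0.00768). Zfp345 averaged 37.3 ± 11.6 FPKM with triclocarban and 14.8 ± 2.35 FPKM in control (SD, n = 4 each; log2 change 1.22 ± 0.30, adjusted p = 0.00674). Both are KRAB zinc finger genes. Zfp957, in which the finger pattern found no C2H2 finger, averaged 93.5 ± 15.9 FPKM with triclocarban and 47.0 ± 16.1 FPKM in control (SD, n = 4 each; log2 change 1.02 ± 0.29, adjusted p = 0.0154). Zfp873 averaged 14.4 ± 5.33 FPKM with triclocarban and 7.05 ± 0.747 FPKM in control (SD, n = 4 each; log2 change 0.88 ± 0.28, adjusted p = 0.0247). Of the 8 rises, Zfp58, Zfp750, Zfp735, Zfp60 and Zfp345 were called in all alternative settings. Zfp957 lost its call without control library 3 (0.88, adjusted p = 0.0503) or control library 4 (0.88, adjusted p = 0.0509). Zfp873 lost it without triclocarban library 1 (0.67, adjusted p = 0.076), triclocarban library 3 (0.88, adjusted p = 0.0589), control library 2 (0.84, adjusted p = 0.0564) or control library 3 (0.88, adjusted p = 0.0523), or without controls 1 and 2 together (0.80, adjusted p = 0.0714). Without controls 3 and 4 together, Zfp957 was at 0.59 (adjusted p = 0.116), Zfp931 at 0.84 (adjusted p = 0.0711) and Zfp873 at 0.97 (adjusted p = 0.0559).

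**Figure D2:**
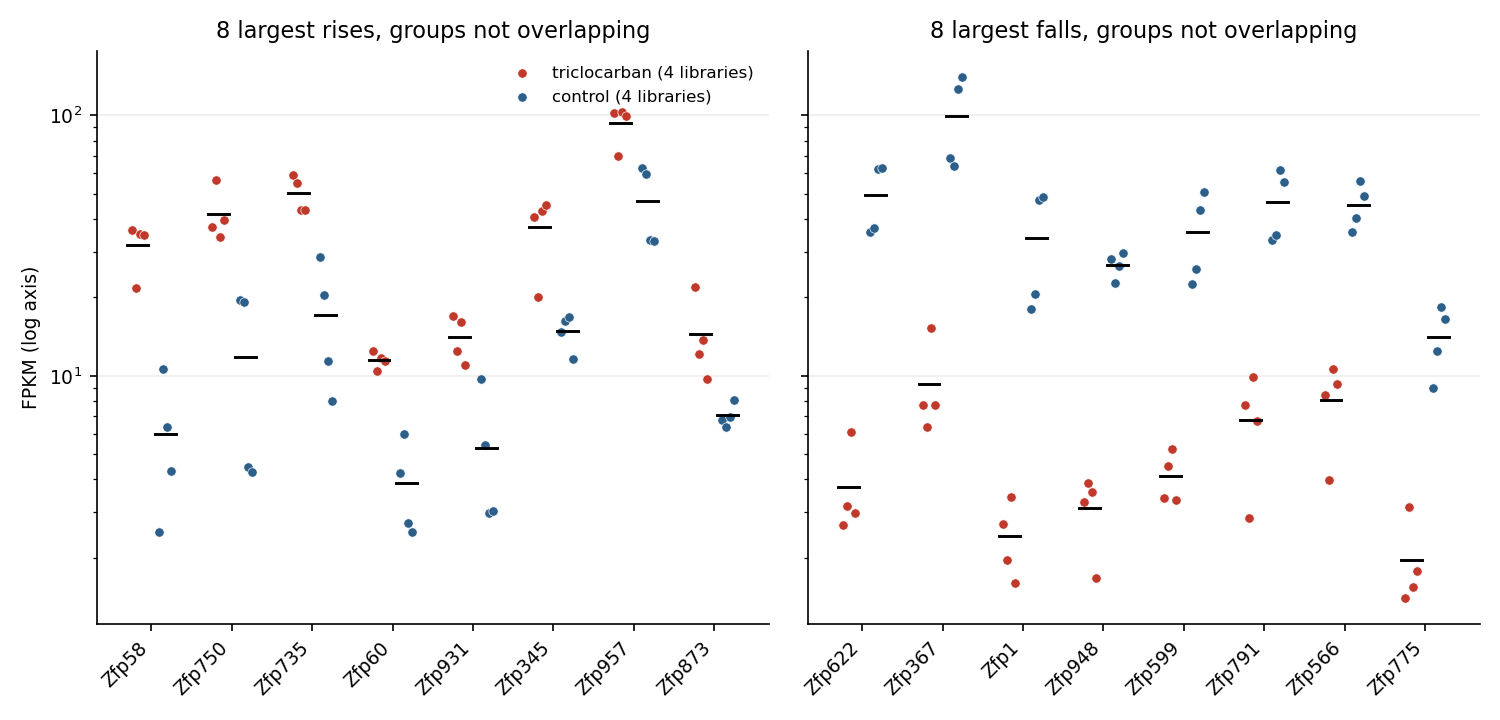
FPKM on a log axis in each library (points) and group mean (bars) of the 8 genes with the largest rises (left) and the 8 with the largest falls (right) among called genes whose groups did not overlap, triclocarban left of control for each gene. Every triclocarban point of Zfp622 lies between 2.68 and 6.09 FPKM and every control point between 35.6 and 63.0 FPKM.

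The promoters of the 3 largest falls, and of 3 of the rises that were called in all settings, Zfp58, Zfp735 and Zfp60, are shown to set promoters of genes that moved in opposite directions side by side. They are the 250 bases before the RefSeq start (GRCm38.p6), written 5′ to 3′ on the gene's strand. Capitals mark letters of 6 motifs searched on both strands. GGGCGG is the GC box known for Sp1. The ETS core was searched as CCGGAAG, and the TATA element as TATAAA. The letters CCAAT name the element bound by NF-Y. The NRF1 element was searched as TGCGCA. The core of the site bound by ZNF143, the human counterpart of Zfp143, was searched as ACTACAA. The ZNF143 core was added to the search after these sequences were read. The regions are chr15:25984116-25984365, plus strand for Zfp622, chr13:64153200-64153449, minus strand for Zfp367, chr8:111643193-111643442, plus strand for Zfp1, chr13:67500523-67500772, minus strand for Zfp58, chr11:73688528-73688777, plus strand for Zfp735 and chr7:27731159-27731408, plus strand for Zfp60.
Zfp622: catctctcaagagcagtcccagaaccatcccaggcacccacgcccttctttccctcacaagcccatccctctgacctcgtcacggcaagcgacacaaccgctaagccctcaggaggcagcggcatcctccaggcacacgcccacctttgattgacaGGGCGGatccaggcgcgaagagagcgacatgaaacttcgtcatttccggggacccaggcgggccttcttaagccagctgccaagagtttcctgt
Zfp367: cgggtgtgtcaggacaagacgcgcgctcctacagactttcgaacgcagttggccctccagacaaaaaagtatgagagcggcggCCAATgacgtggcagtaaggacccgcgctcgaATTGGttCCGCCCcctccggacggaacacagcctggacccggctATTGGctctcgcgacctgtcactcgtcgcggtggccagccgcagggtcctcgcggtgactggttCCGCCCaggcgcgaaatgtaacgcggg
Zfp1: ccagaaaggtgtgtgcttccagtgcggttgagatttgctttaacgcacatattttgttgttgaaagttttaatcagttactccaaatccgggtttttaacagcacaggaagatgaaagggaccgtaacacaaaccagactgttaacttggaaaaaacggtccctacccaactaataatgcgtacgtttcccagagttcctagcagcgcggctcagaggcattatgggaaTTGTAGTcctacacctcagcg
Zfp58: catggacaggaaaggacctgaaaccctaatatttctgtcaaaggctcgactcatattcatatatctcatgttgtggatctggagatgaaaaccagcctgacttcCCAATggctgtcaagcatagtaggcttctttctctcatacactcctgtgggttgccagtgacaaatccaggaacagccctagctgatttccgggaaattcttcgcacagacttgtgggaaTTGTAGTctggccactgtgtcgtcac
Zfp735: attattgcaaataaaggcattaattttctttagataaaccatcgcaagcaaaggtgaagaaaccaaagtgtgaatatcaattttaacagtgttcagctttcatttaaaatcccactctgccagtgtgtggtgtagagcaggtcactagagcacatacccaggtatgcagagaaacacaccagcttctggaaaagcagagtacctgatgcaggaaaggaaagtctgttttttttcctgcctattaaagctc
Zfp60: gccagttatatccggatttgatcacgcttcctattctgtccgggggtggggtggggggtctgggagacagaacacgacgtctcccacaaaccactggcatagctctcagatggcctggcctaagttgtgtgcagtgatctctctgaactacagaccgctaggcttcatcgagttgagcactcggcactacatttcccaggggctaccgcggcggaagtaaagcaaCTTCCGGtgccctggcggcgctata

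The promoter of Zfp367 held 2 GC boxes and 3 CCAAT boxes, and that of Zfp622 held 1 GC box. Zfp1, which was lower, and Zfp58, which was higher, each held 1 ZNF143 core near the start, and no listed motif occurred in the window of Zfp735. Promoters were matched for 104 of the 123 genes. A GC box occurred in 18 of 31 promoters of lower genes, 2 of 11 of higher genes and 29 of 61 of genes not called, and in 32.7% of all 32851 promoter windows of this length. A CCAAT box occurred in 20 of 31, 7 of 11 and 31 of 61 of them, and in 33.8% of all windows. The ZNF143 core occurred in 1 of 31, 1 of 11 and 4 of 61 of them, and in 2.81% of all windows. The ETS core occurred in 5 of 31, 2 of 11 and 12 of 61, and in 6.91% of all windows. The TATA element occurred in 2 of 31, 0 of 11 and 1 of 61, and in 12.4% of all windows. The NRF1 element occurred in 0 of 31, 0 of 11 and 4 of 61, and in 6.43% of all windows. The GC content of the windows had medians of 54.4% for lower genes, 52.4% for higher genes, 52.4% for genes not called and 52.4% for all windows. These are matches of letters, and binding at them was not measured.

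Genes known for silencing at imprinted genes and repeats were mostly not called. Zfp57 maintains DNA methylation at imprinting control regions together with TRIM28. It lies at chr17:37001163-37010635 (GRCm38) and measured 110.3, 37.0, 278 and 207 FPKM with triclocarban, against 112, 66.7, 38.5 and 40.1 FPKM in control (log2 change 1.08 ± 0.57, adjusted p = 0.151). Triclocarban library 2 was below every control library and libraries 3 and 4 were far above them, and without triclocarban library 2 the change was called at 1.65 (adjusted p = 0.013). Zfp445, which shares the imprint role, measured 7.84, 6.62, 4.79 and 5.94 FPKM with triclocarban, against 9.62, 8.20, 7.80 and 8.56 FPKM in control (log2 change -0.40 ± 0.24, adjusted p = 0.208). Zfp568, a repressor of the placental Igf2 transcript, measured 5.91, 9.07, 3.41 and 6.93 FPKM with triclocarban, against 9.30, 5.29, 6.38 and 9.17 FPKM in control (log2 change -0.25 ± 0.31, adjusted p = 0.554). The groups overlapped in all 3 genes.

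Zfp932, known for repressing endogenous retroviruses of the ERVK class, rose. It measured 56.4, 51.5, 41.6 and 38.3 FPKM with triclocarban, against 44.8, 29.9, 11.6 and 12.4 FPKM in control (log2 change 1.10 ± 0.40, adjusted p = 0.0465). Control library 1 lay above triclocarban libraries 3 and 4, and 32.6% of the transcript's stretches occur in other genes. The call was lost when any library other than control 1 or control 2 was left out, with adjusted p of 0.0672 to 0.135. Without triclocarban libraries 1, 2, 3 and 4 in turn the changes were 1.01, 1.05, 1.15 and 1.19, and without control libraries 3 and 4 in turn they were 0.83 and 0.86. Without controls 3 and 4 together the change was 0.33 (adjusted p = 0.419), without the filter on low genes the adjusted p was 0.108, and with a pseudocount of 0.1 it was 0.0509. Zfp708, known for binding RMER19B repeats, was at 7.62, 3.79, 7.84 and 6.24 FPKM with triclocarban, against 4.76, 5.54, 12.8 and 12.1 FPKM in control (log2 change -0.34 ± 0.36, adjusted p = 0.471). All of its transcript's stretches occur in other genes, so its level cannot be assigned to it alone. Zfp600, with 75.2% shared stretches, averaged 17.2 ± 1.42 FPKM with triclocarban and 22.6 ± 4.02 FPKM in control (SD, n = 4 each; log2 change -0.36 ± 0.24, adjusted p = 0.245).

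Zfp296, Zfp143 and Zfp217 fell. Zfp296, expressed in pluripotent cells, lies at chr7:19577287-19580656. It measured 29.4, 13.1, 36.1 and 28.0 FPKM with triclocarban, against 112, 97.4, 115 and 90.3 FPKM in control (log2 change -1.997 ± 0.31, adjusted p = 0.000477), with no overlap between the groups. Zfp143, an activator of many promoters and of small nuclear RNA genes, lies at chr7:110061217-110095394. It measured 8.13, 5.93, 7.89 and 6.75 FPKM with triclocarban, against 31.7, 26.6, 50.3 and 51.7 FPKM in control (log2 change -2.28 ± 0.28, adjusted p = 0.000141). Zfp217, a component of corepressor complexes, measured 4.25, 6.31, 4.42 and 4.44 FPKM with triclocarban, against 23.2, 23.3, 29.9 and 31.2 FPKM in control (log2 change -2.25 ± 0.25, adjusted p = 7.87e-05). For each of these 3 genes the highest triclocarban library was below the lowest control library, and the call held in every alternative setting. Zfp217 averaged 4.85 FPKM with triclocarban and entered the set through its control level. The exons of Zfp296 and Zfp143 overlap those of a gene on the opposite strand.

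Zfp281, a regulator of pluripotency, had too few libraries at 1 FPKM to be tested. It measured 0.0247, 0.129, 0.0379 and 0.00920 FPKM with triclocarban, against 16.0, 14.2, 0.269 and 28.8 FPKM in control. The low control library 3 stands apart from the other controls. Without the filter the log2 change was -3.24 ± 0.87 (adjusted p = 0.0314 over all genes in that fit). Zfp410, known for activating Chd4 and named here after its values were seen, measured 16.6, 7.89, 12.8 and 10.9 FPKM with triclocarban, against 22, 18.5, 34.8 and 36.3 FPKM in control (log2 change -1.14 ± 0.31, adjusted p = 0.0122). Its groups did not overlap, and the adjusted p was 0.0546 after median-of-ratios scaling, 0.0634 after quantile normalization and 0.11 without controls 3 and 4. Chd4 itself, a subunit of the NuRD corepressor complex, was not called (log2 change 0.27 ± 0.32, adjusted p = 0.537).

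Other members of known function in chromatin and transcription were not called. Zfp277, a partner of the Polycomb protein BMI1, measured 64.0, 36.2, 52.8 and 38.2 FPKM with triclocarban, against 39.6, 34.4, 11.8 and 13.7 FPKM in control (log2 change 1.06 ± 0.40, adjusted p = 0.0519). It crossed the threshold under the 3 other scalings, at 1.3 to 1.39, and without control library 1 (1.33, adjusted p = 0.0157) or control library 2 (1.27, adjusted p = 0.0311) or both (1.79, adjusted p = 0.00127). With the replicate number as a block its adjusted p was 0.0359, and with library weights it was 0.0249. Zfp638, which acts with the HUSH complex on unintegrated retroviral DNA, measured 19.4, 32.7, 21.9 and 21.1 FPKM with triclocarban, against 10.7, 11.8, 17.7 and 15.7 FPKM in control (log2 change 0.72 ± 0.27, adjusted p = 0.05003). All of its triclocarban libraries were above all controls, and it was called under the 3 other scalings, at 1.01 to 1.09, and without control library 3, at 0.84 (adjusted p = 0.0467), or without controls 3 and 4, at 0.99 (adjusted p = 0.0275). Its adjusted p was also under the threshold with a pseudocount of 5 (0.0487), a filter at 5 FPKM (0.0463), library weights (0.0271) and no mean-variance trend (0.0454). Zfp148, which binds GC-rich promoters, averaged 19 ± 4.68 FPKM with triclocarban and 22.5 ± 5.50 FPKM in control (SD, n = 4 each; log2 change -0.22 ± 0.29, adjusted p = 0.565). Zfp644, a partner of the H3K9 methyltransferases G9a and GLP, averaged 15.3 ± 3.48 FPKM with triclocarban and 17.9 ± 3.53 FPKM in control (SD, n = 4 each; log2 change -0.21 ± 0.27, adjusted p = 0.557). Their groups overlapped. Zfp592 and Zfp532, which form a complex with ZMYND8, had changes of -0.11 ± 0.29 and 0.00 ± 0.39 (adjusted p = 0.782 and 0.997), and Zfp318, which controls IgD expression in B cells, of 0.21 ± 0.37 (adjusted p = 0.683).

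Among members that act on RNA, ribosomes or protein modification, Zfp622, Zfp346, Zfp106 and Zfp830 fell. Zfp346, which binds double-stranded RNA, measured 0.530, 1.42, 0.981 and 1.36 FPKM with triclocarban, against 5.17, 5.49, 13.7 and 14.9 FPKM in control (log2 change -2.27 ± 0.36, adjusted p = 0.000509). With a mean of 1.07 FPKM with triclocarban, Zfp346 entered the set through its control level. Zfp106, an RNA-binding protein, measured 16.4, 20.7, 17.8 and 19.1 FPKM with triclocarban, against 25.9, 36.9, 32.5 and 35.1 FPKM in control (log2 change -0.78 ± 0.23, adjusted p = 0.0187). Zfp830, needed for divisions of the early embryo and involved in splicing, measured 10.9, 14.9, 12.1 and 10.9 FPKM with triclocarban, against 19.7, 21.2, 24.4 and 23.5 FPKM in control (log2 change -0.82 ± 0.23, adjusted p = 0.0142). Their groups did not overlap. The fall of Zfp346 was called in every setting, whereas Zfp106 and Zfp830 were called under none of the 3 other scalings, with changes of -0.45 to -0.49 (adjusted p of 0.129 to 0.143) for Zfp106 and of -0.44 to -0.53 (adjusted p of 0.105 to 0.149) for Zfp830. Zfp830 also lost its call without triclocarban library 4 (-0.78, adjusted p = 0.0507) or without controls 3 and 4 (-0.71, adjusted p = 0.0575). Zfp106 lost it without triclocarban library 1 (-0.73, adjusted p = 0.0533), triclocarban library 3 (-0.76, adjusted p = 0.0552), control library 2 (-0.72, adjusted p = 0.0527) or control library 4 (-0.74, adjusted p = 0.0524), and without controls 3 and 4 together (-0.72, adjusted p = 0.0616).

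Zfp207, a spindle assembly protein that binds BUB3, was not called. It measured 121, 30.3, 85.4 and 76.4 FPKM with triclocarban, against 54.7, 47.8, 58.3 and 54.5 FPKM in control (log2 change 0.38 ± 0.37, adjusted p = 0.444), and without triclocarban library 2, the lowest of all libraries, it was called at 0.77 (adjusted p = 0.0192). Zfp598, the ubiquitin ligase that marks collided ribosomes, measured 5.96, 27.2, 7.55 and 11.5 FPKM with triclocarban, against 10.9, 20.3, 8.87 and 13.5 FPKM in control (log2 change -0.20 ± 0.43, adjusted p = 0.744). Zfp91, an E3 ubiquitin ligase, measured 11.4, 46.0, 12.5 and 15.2 FPKM with triclocarban, against 16.5, 25.2, 17.5 and 18.1 FPKM in control (log2 change -0.09 ± 0.40, adjusted p = 0.88). In Zfp598 and Zfp91 triclocarban library 2 was the highest library of both groups while the other 3 triclocarban libraries were at most 11.5 FPKM for Zfp598 and at most 15.2 FPKM for Zfp91. Zfp451, a SUMO ligase, averaged 30.1 ± 7.43 FPKM with triclocarban and 25.9 ± 4.24 FPKM in control (SD, n = 4 each; log2 change 0.20 ± 0.26, adjusted p = 0.574). Over all 123 genes triclocarban library 2 was the lowest of its group in 56 and the highest in 35. That library also had the smallest FPKM sum, 477882, where the others had 533941 to 605986.

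The highest levels were those of Zfp706, Zfp655, Zfp560, Zfp982 and Zfp57. Zfp706, known in embryonic stem cells for a part in the exit from self-renewal, lies at chr15:36997027-37007773. It measured 226, 135, 230.0 and 239.6 FPKM with triclocarban, against 252, 241, 187 and 176 FPKM in control (log2 change -0.06 ± 0.27, adjusted p = 0.878). Zfp655 was the only one of the 5 that was called. It measured 260.3, 183, 268 and 237 FPKM with triclocarban, against 168, 144, 117 and 125 FPKM in control (log2 change 0.77 ± 0.24, adjusted p = 0.025), with every triclocarban library above every control. The call of Zfp655 was lost without triclocarban library 1 (0.72, adjusted p = 0.0691), triclocarban library 3 (0.71, adjusted p = 0.0801), triclocarban library 4 (0.76, adjusted p = 0.0657), control library 3 (0.70, adjusted p = 0.075) or control library 4 (0.72, adjusted p = 0.0689), and it was 0.59 (adjusted p = 0.117) without both of these controls. The KRAB zinc finger gene Zfp560 averaged 153 ± 23.0 FPKM with triclocarban and 185 ± 27.0 FPKM in control (SD, n = 4 each; log2 change -0.27 ± 0.24, adjusted p = 0.389). Zfp982 averaged 131 ± 37.3 FPKM with triclocarban and 102 ± 21.7 FPKM in control (SD, n = 4 each; log2 change 0.33 ± 0.28, adjusted p = 0.368). Zfp706, Zfp560 and Zfp982 overlapped between the groups.

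**Figure D3:**
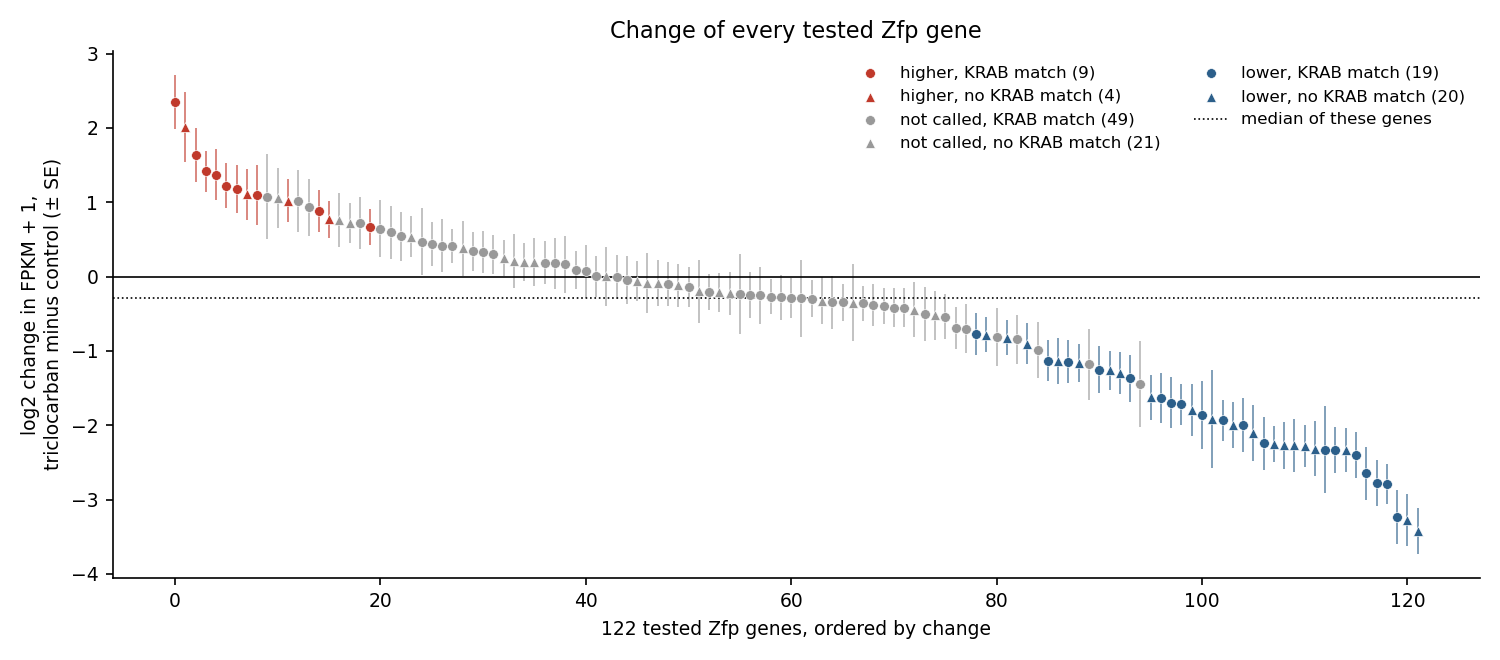
Log2 change in FPKM + 1 (triclocarban minus control, ± SE) of the 122 tested Zfp genes in order of change, coloured by call, with circles for proteins with a KRAB match and triangles for those without; the dotted line is their median, -0.29. The called changes run from -3.42 (Zfp622) to -0.78 among lower genes and from 0.67 to 2.35 (Zfp58) among higher genes.

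The genes were also sorted by KRAB match, finger number and shared sequence, which the level cutoff did not use, and by level, which it did. Beside the counts of each class stand the shares of all genes tested, 11.3% higher and 30.8% lower. A KRAB match was found in 77 of the 123 (62.6%), and in 130 of the 222 Zfp genes below the cutoff (58.6%). Of the 77, 9 (11.7%) were higher and 19 (24.7%) were lower with triclocarban, with a median log2 change of -0.28. Of the 45 tested genes without a match, 4 (8.89%) were higher and 20 (44.4%) were lower, with a median of -0.35. The proteins held 0 to 23 fingers, with a median of 10. The pattern found none in Zfp330, Zfp750, Zfp935 and Zfp957. Among proteins with 0 to 3 fingers 2 of 19 tested were higher and 7 lower, with 4 to 9 fingers 4 of 38 higher and 16 lower, with 10 to 14 fingers 3 of 40 higher and 10 lower, and with 15 or more 4 of 25 higher and 6 lower. By level, the 41 highest had 6 higher and 11 lower, the 41 in the middle 3 higher and 13 lower, and the lowest, 40 of them tested, 4 higher and 15 lower. Exons of 33 of the 123 genes overlap exons of other annotated genes, 13 on the same strand, among them Zfp58, Zfp91, Zfp644 and Zfp708, and 21 on the opposite strand, among them Zfp706, Zfp106, Zfp346 and Zfp532. At least 20% of the transcript's stretches occur in other genes for 15 of the 123, of which 3 were higher and 5 lower. No difference between these classes was tested. The lower genes of these classes include 21 that were under 5 FPKM with triclocarban only. The higher genes include 4 that were under 5 FPKM in control only. Such genes could enter the set only by differing, so the class counts are no support for a direction.

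KRAB zinc finger genes often lie in clusters of related genes, and 5 clusters held at least 4 of the genes, with neighbouring genes at most 1 Mb apart. The largest, on chromosome 17 (GRCm38, 21008903 to 22456689), held 13 genes from Zfp160 to Zfp946, of which 1, Zfp948, was lower and 0 were higher. The share called was 7.69%, beside 42.1% of all genes tested. Zfp948 had a change of -2.79, while the other 12, none of them called, ran from -1.45 (Zfp54, adjusted p = 0.065) to 0.60 (Zfp943, adjusted p = 0.206). Zfp54 was called without triclocarban library 3 (-1.81, adjusted p = 0.0353) or control library 2 (-1.88, adjusted p = 0.0184), without controls 1 and 2 (-2.10, adjusted p = 0.0248), or with the replicate number as a block (-1.45, adjusted p = 0.0024). Zfp943 was called without control library 1 (0.90, adjusted p = 0.0376), without controls 1 and 2 (1.19, adjusted p = 0.00593), and after median-of-ratios (0.89, adjusted p = 0.041) or upper-quartile scaling (0.92, adjusted p = 0.0494). The sum over these 13 genes was 242, 186, 238 and 186 FPKM with triclocarban, against 314, 235, 297 and 279.8 FPKM in control. Triclocarban libraries 1 and 3 were above control library 2, the lowest of its group.

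The chromosome 4 cluster (145510759 to 147809788) held 12 genes from Zfp990 to Zfp984, all with a KRAB match, of which 2 were lower and 0 were higher. That is 16.7% called, beside 42.1% of all genes tested. Zfp989 measured 12.7, 6.80, 13.2 and 15.6 FPKM with triclocarban, against 25.8, 22, 27.7 and 33 FPKM in control (log2 change -1.14 ± 0.29, adjusted p = 0.00775), and without controls 3 and 4 its change was -0.98 (adjusted p = 0.0566). Zfp987 measured 4.47, 4.51, 6.97 and 3.25 FPKM with triclocarban, against 9.43, 6.26, 8.76 and 10.9 FPKM in control (log2 change -0.78 ± 0.28, adjusted p = 0.0428). The call of Zfp987 was lost under each of the 3 other scalings (-0.35 to -0.51, adjusted p of 0.176 to 0.329), and without triclocarban library 1, 2 or 4 (-0.76, -0.76 and -0.64; adjusted p = 0.0888, 0.0554 and 0.136) or control library 1, 3 or 4 (-0.74, -0.77 and -0.68; adjusted p = 0.0737, 0.082 and 0.114). It was also lost with the replicate number as a block (adjusted p = 0.0578), with library weights (-0.65, adjusted p = 0.102), without the filter on low genes (adjusted p = 0.0638) and without controls 3 and 4 (-0.62, adjusted p = 0.181). Both share most of their transcript stretches with other genes, 57.4 and 86.7%, and 8 of the 12 share at least 20%. The sum over the 12 was 376, 236, 446 and 471 FPKM with triclocarban, against 411, 322, 432 and 459 FPKM in control, and the groups overlapped. Zfp979, chosen after its values were seen, spread widely within both groups. It measured 52.2, 28.1, 143 and 171 FPKM with triclocarban, against 85.2, 61.7, 115 and 135 FPKM in control (log2 change -0.29 ± 0.52, adjusted p = 0.685).

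Beside the counts of the smaller clusters stand the shares of all genes tested, 11.3% higher and 30.8% lower. Of the smaller clusters, that on chromosome 7 from Zfp788 to Zfp936 (41633203 to 43192109) held 4 genes, 2 of them, Zfp977 and Zfp936, lower. Its sum was 44.1, 26.4, 36.1 and 32.5 FPKM with triclocarban, against 81.2, 79.6, 169 and 141 FPKM in control. The groups did not overlap, and Zfp936 carried most of the sum, at 26.7, 9.58, 24.4 and 18.8 FPKM with triclocarban, against 59.7, 56.0, 116 and 91.9 FPKM in control (log2 change -1.998 ± 0.36, adjusted p = 0.00112). The cluster on chromosome 7 from Zfp420 to Zfp260 (29859979 to 30107622) held 5 genes, with Zfp420 higher (log2 change 1.11 ± 0.34, adjusted p = 0.0222) and Zfp566 lower. The call of Zfp420 was lost without triclocarban library 1, 3 or 4 (0.95, 1.10 and 1.05; adjusted p = 0.0689, 0.0518 and 0.0612) or control library 3 or 4 (0.94 and 0.97; adjusted p = 0.0672 and 0.0648), without controls 3 and 4 together (0.64, adjusted p = 0.201) and without the filter on low genes (adjusted p = 0.0544). The cluster on chromosome 8 from Zfp930 to Zfp963 (69209038 to 69749970) held 5 genes, with Zfp963 higher and Zfp868 and Zfp869 lower. The call of Zfp963 was lost without controls 3 and 4 (0.79, adjusted p = 0.114), and that of Zfp869 after quantile normalization (-0.71, adjusted p = 0.0594). With triclocarban, Zfp977 and Zfp869 averaged 2.12 and 3.57 FPKM, and in control Zfp420 and Zfp963 averaged 3.75 and 4.90 FPKM. Zfp977, Zfp869, Zfp420 and Zfp963 thus entered the set through 1 group alone, and their calls are no support for a direction. The groups of Zfp420 and Zfp963 overlapped. At least 20% of the transcript's stretches occur in other genes for 8 of the 12 chromosome 4 genes and 1 of the 5 chromosome 8 genes. In the chromosome 17 cluster and both chromosome 7 clusters the number was 0. How reads that match several places were counted is not given in the sources used here.

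**Figure D4:**
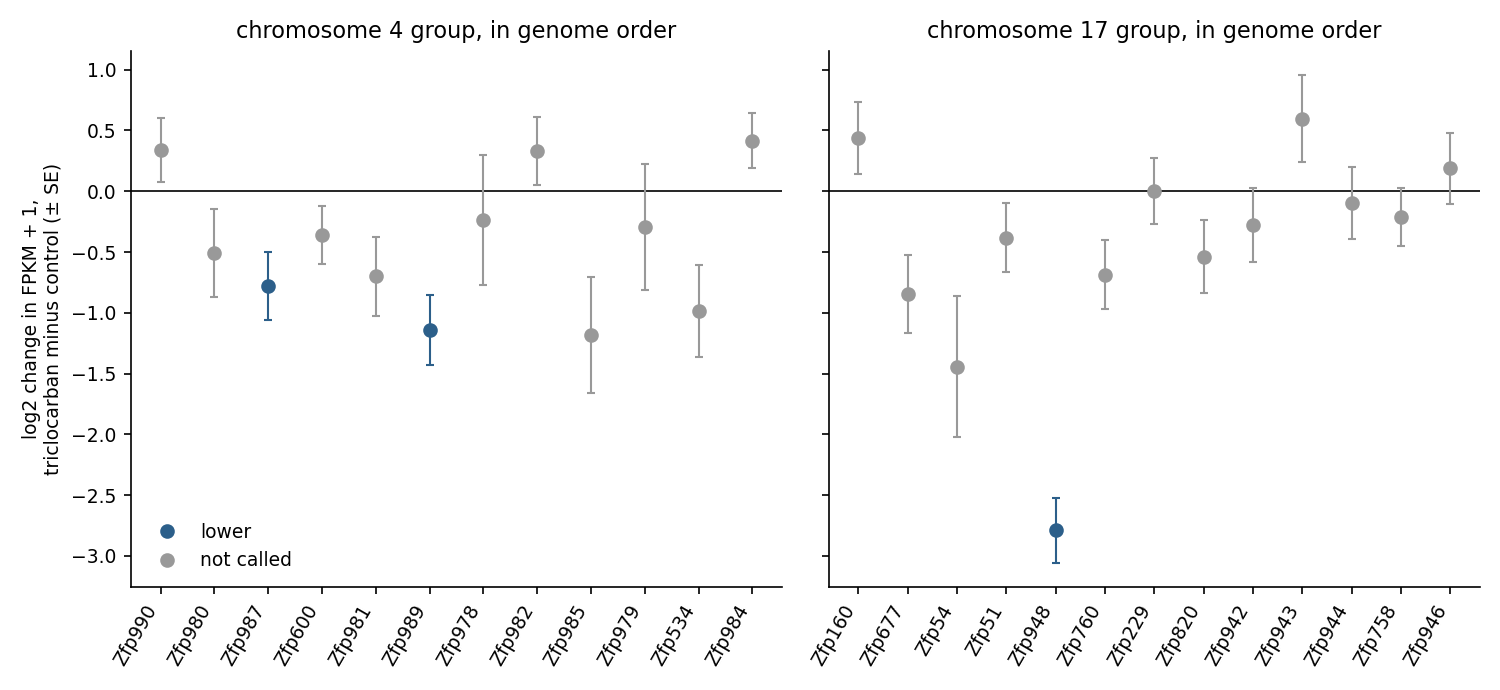
Log2 change in FPKM + 1 (triclocarban minus control, ± SE) of the Zfp genes in the chromosome 4 group (left, 12 genes) and the chromosome 17 group (right, 13 genes), in genome order and evenly spaced, coloured by call. Zfp948, at -2.79, lies between Zfp51 and Zfp760, at -0.38 and -0.69, neither of which was called.

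The partners through which KRAB zinc finger proteins act were read from a list of 33 genes found in the table, 32 of them tested. Of these 2 (6.25%) were higher and 7 (21.9%) were lower, beside 11.3% and 30.8% of all genes tested, and the median log2 change was 0.06, beside -0.19 for all genes tested. Trim28, the scaffold that binds the KRAB domain, was lower. It measured 13.4, 24.4, 17.7 and 18.2 FPKM with triclocarban, against 29.8, 32.5, 43.1 and 40.5 FPKM in control (log2 change -0.96 ± 0.26, adjusted p = 0.0117). The call of Trim28 was lost under the 3 other scalings, with changes of -0.67 to -0.63 and adjusted p of 0.0675 to 0.0814, and without controls 3 and 4 (-0.75, adjusted p = 0.0758). Setdb1, the H3K9 methyltransferase of the complex, was higher, at 32.3, 42.8, 30.7 and 35.2 FPKM with triclocarban, against 19.8, 22.4, 17.5 and 18.1 FPKM in control (log2 change 0.82 ± 0.23, adjusted p = 0.0143), and at a change of 0.70 (adjusted p = 0.0586) without controls 3 and 4. Mphosph8, a HUSH subunit, was also higher, at 55.8, 89.1, 58.6 and 91.8 FPKM with triclocarban, against 27.0, 41.2, 38.4 and 33.3 FPKM in control (log2 change 1.04 ± 0.27, adjusted p = 0.00912). In all 3 genes the groups did not overlap.

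The lower genes included Suv39h1, another H3K9 methyltransferase, which measured 2.35, 3.43, 2.49 and 2.18 FPKM with triclocarban, against 25.7, 21.1, 36.9 and 24.1 FPKM in control (log2 change -2.94 ± 0.26, adjusted p = 4.68e-05). Atf7ip2, a partner of SETDB1, measured 18.5, 22.8, 23.4 and 16.2 FPKM with triclocarban, against 67.7, 69.4, 96.9 and 103 FPKM in control (log2 change -1.995 ± 0.26, adjusted p = 0.000166). Sumo2, a modifier that TRIM28 uses to recruit its partners, measured 28.6, 17.1, 35.6 and 25.3 FPKM with triclocarban, against 88.6, 117, 331 and 292 FPKM in control (log2 change -2.74 ± 0.43, adjusted p = 0.000492). Their triclocarban libraries were all below control. Ehmt2, Chaf1b and Morc2a were the other lower genes. The number of higher genes on the list was 9 after median-of-ratios scaling and 9 after upper-quartile scaling, and 4 without triclocarban library 2.

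The Zfp genes were set beside related sets in the same fit, in which 11.3% of all genes tested were higher and 30.8% were lower. Of 118 tested Zfp genes below the cutoff, 5 (4.24%) were higher and 28 (23.7%) were lower, with a median log2 change of -0.00. Of 29 tested Zbtb genes, which pair zinc fingers with a BTB domain, 2 (6.90%) were higher and 9 (31.0%) were lower, with a median of -0.25. Of 13 tested Zscan and Zkscan genes, which carry a SCAN domain, 3 (23.1%) were higher and 3 were lower, with a median of -0.31. No difference between these sets was tested.

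Controls 3 and 4 stood apart from controls 1 and 2 in many of these genes. Both were below both of controls 1 and 2 in 9 of the 13 higher genes, against 78.5% of all higher genes, and both were above them in 28 of the 39 lower genes, against 62.8% of all lower genes. Of the 70 Zfp genes not called, both were below in 31 and above in 18, against 53.1% and 19.3% of all genes not called. The labels give no batch that separates these pairs. Without controls 3 and 4, 8 Zfp genes (6.56%) were higher and 33 (27.0%) were lower, beside 5.37% and 25.1% of all genes. Without controls 1 and 2, 18 (14.8%) were higher and 44 (36.1%) were lower, beside 21.9% and 32.6% of all genes. Of the calls made with all libraries, 5 higher and 31 lower genes were called under both omissions. Leaving out 1 library gave 8 to 17 higher and 36 to 41 lower genes, beside 7.36 to 14.4% and 26.8 to 32.3% of all genes. The 8 arose without triclocarban library 1, triclocarban library 3, control library 3 or control library 4. In all 20 alternative settings 5 higher and 28 lower genes were called. Many of the lower ones, such as Zfp622, Zfp1, Zfp948, Zfp599, Zfp775, Zfp217 and Zfp346, entered the set through their control levels alone. Zfp60, among the higher, entered through its triclocarban level alone. Shares of all genes were not computed for these counts or for those under both omissions. The counts are thus no result about the Zfp genes as a family. What separates the control pairs was not tested.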

How the data were processed

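Polyadenylated RNA of 2-cell embryos was sequenced as paired reads, per the labels' protocols, which describe more than one library preparation without saying which was used here. The authors deposited 1 table of FPKM values for 37310 genes, with a column for each of 8 libraries. The submitters' processing notes list mm10 as the build, and DESeq2 1.30.1, featureCounts, StringTie and STAR as tools, without saying which made the FPKM. Not given in the sources used here are the annotation release, the strand setting and how reads matching several places were counted. Columns were matched to libraries by name. No library pair held identical values. Depth could not be recovered: only 5.77 to 8.32% of low values came within 0.02 of whole fragments (4% by chance), so no count test was run and no depth is given.

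The Zfp genes and all gene lists were chosen with earlier results of these data known. Gene names, biotypes and coordinates come from GENCODE M21 (GRCm38), which matched 32620 identifiers (87.4%). Genes reaching 1 FPKM in 4 or more libraries were tested with limma 3.58.1 in R 4.3.3. Values were log2(FPKM + 1), eBayes used a mean-variance trend, the model held treatment alone, and 6 residual degrees of freedom remained. Benjamini-Hochberg adjustment ran over all genes tested, with a threshold of 0.05, two-sided. The log2(FPKM + 1) scale understates changes of low genes. The limma step was tested on simulated data. Genes were named by rule: called genes without overlap between groups, the 8 largest rises and 8 largest falls, the 5 highest levels, the 3 genes on each side of the cutoff, a list of members with a described role, and, of the corepressor list, Trim28, Setdb1 and up to 3 called genes in each direction with the smallest adjusted p. Zfp410, Zfp979, the other cluster genes and Chd4 were chosen after their values were seen.

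C2H2 fingers (C, 2 to 4 residues, C, 12 residues, H, 3 to 5 residues, H) and a KRAB A-box match (score above 0 over 33 residues, from a matrix of 155 segments) were found in translated GENCODE coding sequences. The KRAB search replaced a fixed pattern that missed many KRAB genes. Shared sequence is the percentage of a transcript's 75-base stretches found in other genes. Promoters come from RefSeq (GRCm38.p6). Alternatives were 2 pseudocounts, 2 filters, 3 scalings, a replicate block, library weights, no trend, omission of each library and of each pair of controls, and other cutoffs for the set. Python 3.11.15 with pandas 2.3.3 and numpy 2.4.6 made the tables.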

Additional observations from a re-analysis of the deposited data

Results flagged for a closer look

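Among 94 groups of 4 libraries examined for the named genes, 9 held a library whose gap to the nearest other library was above Dixon's 95% critical value for 4 samples. Chance flags about 1 group in 20. Triclocarban library 2 accounts for 6 of the 9. It stood low in Zfp706 (135.2 FPKM, the others 226 to 239.6 FPKM), in Zfp957 (69.81 FPKM, the others 99.1 to 103 FPKM) and in Zfp58 (21.78 FPKM, the others 34.7 to 36.2 FPKM). It stood high in Zfp91 (45.95 FPKM, the others 11.4 to 15.2 FPKM), in Zfp217 (6.307 FPKM, the others 4.25 to 4.44 FPKM) and in Zfp260 (12.22 FPKM, the others 1.85 to 3.57 FPKM). Triclocarban library 3 stood high in Zfp367 (15.31 FPKM, the others 6.36 to 7.74 FPKM) and in Zfp622 (6.087 FPKM, the others 2.68 to 3.16 FPKM). Control library 3 stood low in Zfp148 (14.23 FPKM, the others 24.5 to 25.7 FPKM).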

How the results depend on the processing

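The number of higher Zfp genes was 13 with FPKM as deposited, 23 after median-of-ratios scaling, 22 after upper-quartile scaling and 27 after quantile normalization, while 11.3, 20.4, 20.2 and 22.5% of all genes tested were higher in these fits. Under the 3 scalings 33, 34 and 32 Zfp genes were lower, and their median log2 change was -0.0037, 0.028 and 0.056. The number of higher Zfp genes was 8 to 17 when 1 library was left out, 8 without controls 3 and 4, 18 without controls 1 and 2 and 8 for genes from 10 FPKM. Of all genes tested, 7.36 to 14.4% were higher with 1 library left out, 5.37% without controls 3 and 4 and 21.9% without controls 1 and 2. Lower Zfp genes were 36 to 41 with 1 library left out, beside 26.8 to 32.3% of all genes tested, and 24 from 10 FPKM. Higher genes of the corepressor list were 9, 9 and 4 under the 3 scalings, 4 with library weights, 10 without controls 1 and 2, 1 without controls 3 and 4, and 2 to 4 with 1 library left out. With library weights 16.3% of all genes tested were higher, and the shares in the other fits are those given above. With the replicate number as a block, 14 Zfp genes were higher and 41 lower. Same-numbered libraries had correlations of deviations of 0.338, 0.053, 0.0949 and 0.104 and were not taken as pairs.

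Of 64 named genes tested, 38 were called, and none of these changed sign in any of the 20 settings. Among genes not called, 18 changed sign in at least 1 setting, where they were not called either. After median-of-ratios, upper-quartile and quantile scaling in turn, Zfp592 was at 0.18, 0.21 and 0.21, Zfp148 at 0.069, 0.10 and 0.11, Zfp91 at 0.20, 0.24 and 0.28, Zfp644 at 0.075, 0.11 and 0.17, Zfp598 at 0.088, 0.12 and 0.20, and Zfp568 at 0.015, 0.046 and 0.17. Under the first 2 of these Zfp706 was at 0.24 and 0.28, Zfp560 at 0.034 and 0.069, and Zfp979 at 0.012 and 0.047. Under quantile normalization Zfp600 was at 0.0025, Zfp708 at 0.095, Zfp445 at 0.019, Zfp260 at 0.031 and Zfp825 at 0.0065. With library weights Zfp706 was at 0.085, Zfp451 at -0.0055, Zfp979 at 0.43 and Zfp532 at -0.23, and with a pseudocount of 0.1 Zfp532 was at -0.0010. Without controls 1 and 2 Zfp706 was at 0.16, Zfp592 at 0.18, Zfp91 at 0.0060 and Zfp598 at 0.010. Without controls 3 and 4 Zfp532 was at -0.45, Zfp708 at 0.22, Zfp979 at 0.095 and Chd4 at -0.015. With 1 library left out at a time, Zfp706 ran from -0.15 to 0.13, Zfp592 from -0.30 to 0.032, Zfp91 from -0.53 to 0.11, Zfp598 from -0.60 to 0.068, Zfp532 from -0.30 to 0.27, Zfp979 from -0.67 to 0.19, Chd4 from -0.0050 to 0.42 and Zfp318 from -0.13 to 0.52. Other calls gained by named genes stand beside the genes, except those of Zfp57 with library weights (1.74, adjusted p = 0.00654), of Zfp583 with library weights (-1.19, adjusted p = 0.0206) or without control library 3 (-1.11, adjusted p = 0.0409) and of Zfp708 without controls 1 and 2 (-0.91, adjusted p = 0.035). Depth is unknown, so the precision of low values cannot be given.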
